A study of Sus scrofa with 102 samples.

Results

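A set of 44 genes for collagens, laminins, extracellular proteases, their inhibitors and cell adhesion or surface proteins was described in pig *Longissimus dorsi*, the long muscle of the back. The genes were taken by symbol from the probes to which the array annotation gives 1 gene symbol. The symbols were those starting as collagen, laminin, integrin, ADAM, TIMP, MMP, cathepsin, serpin, thrombospondin, LOX, SPARC, cadherin or claudin genes, together with *LUM*, *DCN*, *BGN* and numbered CD antigens. *CLDN5* and *CD163* were left out by the rule. These symbols covered 61 probes and 44 of the 2201 genes with 1 symbol in the deposited table. That table holds part of the array, since the authors had kept probes that varied between the pigs, and every share of all probes below is a share of these. Of the 44 genes, 13 had several probes, and the probe with the highest mean over all arrays stood for the gene. No probe for a LOX or SPARC gene or for *BGN* was found in this filtered table.

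Gene expression had been measured in 102 backcross pigs of the Iberian × Landrace cross, fed *ad libitum*, with 1 Affymetrix porcine array per pig. The wider work sought loci behind the fatty acid composition of muscle and backfat. The animals came from F1 boars of Iberian boars and Landrace sows mated back to Landrace sows, so that the pigs share parents. By label 55 pigs were female and 47 male, aged 171 to 184 days, with carcass weights of 43.6 to 97.8 kg. They were slaughtered in 3 batches of 14 pigs (8 females, 6 males), 70 pigs (36 females, 34 males) and 18 pigs (11 females, 7 males). No treatment was compared, and the contrasts are sex, slaughter batch and carcass weight.

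The extracellular matrix of muscle is the connective tissue that wraps each fibre, bundle and vessel. Fibrillar collagens carry tension, collagen IV and the laminins form the basement membrane at the fibre and vessel surface, and collagen VI links the membrane to the fibrils. Small proteoglycans such as decorin and lumican bind collagen fibrils and set their spacing. Metalloproteinases cut matrix proteins, TIMPs block metalloproteinases, and cathepsins are mostly lysosomal proteases. Integrins and cadherins fasten cells to matrix and to each other. The amount and cross-linking of this connective tissue are known to bear on the toughness of meat.

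The values are log2 intensities, ranging from 0.80 to 16.00 in the table. Over the 5449 probes tested, array medians lay between 6.19 and 6.69, and correlations between arrays between 0.605 and 0.977. Of 12 listed skeletal muscle markers 2 had a named probe, *TNNT1* (mean 14.20) and *DES* (mean 12.98), and both lay above 99% of probes, which fits the label of the tissue. The label of sex did not match the signal of a Y-linked probe on 3 arrays, all labelled female, and the sex results below are also given without them. In whole muscle, fewer cells of a type and less RNA per cell cannot be told apart.

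Probes differ in how brightly they respond, so a level was compared only with the same probe in other pigs. The 44 probes had mean log2 intensities from 2.40 (*CD82*, a tetraspanin) to 12.43 (*DCN*, decorin), with a median of 7.45 against 6.46 over all probes tested. *COL1A2*, a chain of type I collagen, had a dim probe with a mean of 3.68, and *CD55*, a brake on complement, one of 3.66. With *CD82* they made 3 genes with a mean under 4, where small differences between dim values are compressed. The median SD over the 102 pigs was 0.70 for the 44 probes and 0.63 for all probes.

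The gene with the widest spread was *THBS2*, thrombospondin 2, a secreted matricellular protein that restrains vessel growth and helps to clear MMP2. Its log2 intensity ran from 3.20 to 10.84 with a median of 8.08 and an SD of 2.01, a spread above that of 99.7% of probes. In bins of 1 log2 unit, 12 pigs lay between 4 and 5, 17 between 5 and 6, and 13 between 6 and 7. The bin from 7 to 8 held 7 pigs, that from 8 to 9 held 15 and that from 9 to 10 held 32. Over all pigs the values thus lay in a high group and a broad low group, with fewer pigs between them, and both groups held females and males and pigs of each batch. Batch 3 had no such gap, since 5 of the 7 pigs between 7 and 8 came from it. The bin from 9 to 10 held 20 females and 12 males, and the bin from 5 to 6 held 9 females and 8 males. Neither sex nor batch differed by the tests used below (limma adjusted p = 0.449 and 0.0973). No other probe followed *THBS2* closely, since the highest correlation of residuals with any probe was 0.418 and the lowest -0.382. With *THBS2* as the explanatory gene, limma called 0 of 43 members (6 at an unadjusted p under 0.05) and 0 of 5448 probes (0%; 692 at an unadjusted p under 0.05). This relation was added after the spread had been seen. A single probe measured *THBS2*, and whether its spread is one of transcript level or of the probe's response to different alleles was not tested.

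**Figure D1:**
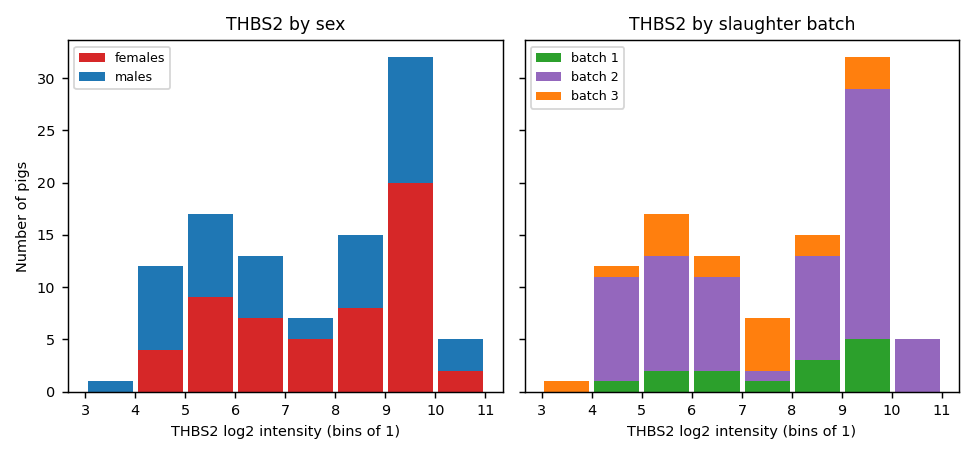
Number of pigs (y axis) in bins of 1 log2 unit of *THBS2* intensity (x axis), stacked by sex in the left panel and by slaughter batch in the right panel, 102 pigs in each. The bins from 5 to 6 and from 9 to 10 hold 17 and 32 pigs and the bin from 7 to 8 holds 7, with both sexes and all 3 batches on each side; 5 of those 7 are from batch 3.

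Females and males were compared with limma, with slaughter batch and carcass weight in the model and Benjamini-Hochberg adjustment over all 5449 probes. Of the 44 genes 12 passed an adjusted p of 0.05 (27.3%), against 26.1% of all probes tested, so that the share was near that of all probes. In females 4 genes were higher (11.7% of all probes were) and 8 lower (14.4% of all probes were). The lower genes included the metalloproteinase inhibitors *TIMP1* and *TIMP3*, the complement regulator *CD46*, thrombospondin 1 (*THBS1*), the fibronectin receptor chain *ITGA5*, the lysosomal protease *CTSD*, the basement membrane collagen *COL4A2*, and *CLDND1*, a claudin domain protein. The higher genes were *COL15A1*, *DCN*, the endothelial receptor *CD93* and *ITGB1BP2*, which encodes melusin, a muscle protein that binds an integrin tail. The median difference, female minus male, was -0.09 over the 44 genes and -0.03 over all probes. After quantile normalization of the arrays 5 genes were higher and 6 lower in females, since *COL4A2* and *CLDND1* no longer passed (adjusted p = 0.0827 and 0.0699) and *SERPINF1* did (adjusted p = 0.0398).

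*TIMP1*, a secreted inhibitor of metalloproteinases, ran from 5.38 through a median of 6.43 to 8.12 in females, and from 5.26 through 6.92 to 10.42 in males. The lowest values were alike in both sexes and the highest were male. The mean was 6.44 ± 0.56 (SD, n = 55) in females and 7.10 ± 0.97 (SD, n = 47) in males, a modelled difference of -0.65 ± 0.15 (SE, adjusted p = 0.000672), or 1.57-fold. Within batches the difference of means was -0.07 in batch 1, -0.94 in batch 2 and 0.21 in batch 3, and was thus largest in the batch with the most pigs. *CD46*, a membrane cofactor that inactivates complement fragments, ran from 7.25 through 8.09 to 9.25 in females and from 7.51 through 8.70 to 11.12 in males. The modelled difference was -0.56 ± 0.12 (SE, adjusted p = 0.000384), or 1.47-fold, and -0.08, -0.69 and -0.25 within batches 1, 2 and 3. Its other, dimmer probe differed by -0.59 (adjusted p = 0.000661). Males spread wider than females for both genes.

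*THBS1*, a matricellular protein that activates latent TGF-beta, ran from 7.10 through 8.19 to 10.12 in females and from 6.79 through 8.94 to 12.37 in males. The difference was -0.62 ± 0.21 (SE, adjusted p = 0.0217), and -0.45, -0.75 and -0.08 within the batches. The gene had 3 probes. The second probe differed by -0.72 (adjusted p = 0.00466) and the third by -0.08 (adjusted p = 0.831), so that not every probe of *THBS1* showed the difference. *ITGA5* ran from 2.73 through 4.33 to 5.72 in females and from 2.67 through 4.83 to 7.46 in males, and its difference was -0.44 ± 0.14 (SE, adjusted p = 0.0118). Within batches it was -0.03, -0.70 and 0.30, again largest in batch 2. *CTSD*, cathepsin D, an aspartic protease of lysosomes, ran from 5.49 through 7.29 to 9.37 in females and from 6.01 through 7.99 to 9.88 in males. Its difference was -0.39 ± 0.14 (SE, adjusted p = 0.0291), with 0.23, -0.61 and -0.51 within the batches.

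*CLDND1* ran from 8.81 through 9.61 to 11.09 in females and from 8.87 through 9.86 to 10.82 in males. It was lower in females in every batch, by -0.20, -0.35 and -0.33, and by -0.32 ± 0.10 in the model (SE, adjusted p = 0.00855). Both other probes of *CLDND1* were also lower in females, by -0.42 and -0.53 (adjusted p = 0.010 and 0.00151). *TIMP3*, an inhibitor that stays bound to matrix, ran from 3.69 through 4.27 to 6.37 in females and from 3.75 through 4.37 to 7.88 in males. It differed by -0.34 ± 0.13 (SE, adjusted p = 0.0352), and by 0.05, -0.53 and 0.08 within the batches. The probe spread little in batches 1 and 3 (SD 0.24 and 0.12), against an SD of 0.76 in batch 2. The other probe of *TIMP3* differed by -0.30 and did not pass (adjusted p = 0.0645). *COL4A2* ran from 7.00 through 8.18 to 9.35 in females and from 6.53 through 8.56 to 9.75 in males. It differed by -0.27 ± 0.10 (SE, adjusted p = 0.0412), and by -0.24, -0.35 and 0.13 within the batches. For these genes, too, female and male values overlapped over most of their range.

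*COL15A1*, a collagen of basement membrane zones around fibres and capillaries, was the gene most clearly higher in females. It ran from 8.68 through 10.15 to 11.11 in females and from 7.71 through 9.62 to 11.13 in males, and the low values were mostly male. The difference was 0.46 ± 0.13 (SE, adjusted p = 0.00444), or 1.37-fold, and 0.22, 0.50 and 0.45 within the batches. *DCN* ran from 11.43 through 12.58 to 13.43 in females and from 11.25 through 12.22 to 13.28 in males. Its difference was 0.27 ± 0.09 (SE, adjusted p = 0.0192), and 0.20, 0.29 and 0.33 within the batches. *CD93* ran from 4.52 through 6.14 to 7.14 in females and from 3.67 through 6.05 to 7.12 in males, with a difference of 0.34 ± 0.11 (SE, adjusted p = 0.0158), and 0.50, 0.27 and 0.41 within the batches. *ITGB1BP2* ran from 8.07 through 9.76 to 10.63 in females and from 7.86 through 9.40 to 10.68 in males. It differed by 0.23 ± 0.09 (SE, adjusted p = 0.0349), and by 0.38, 0.27 and 0.01 within the batches. In batch 2 alone *ITGB1BP2* no longer passed (adjusted p = 0.0516), and with no covariates neither it nor *CD93* did (adjusted p = 0.274 and 0.0871). All 4 genes were higher in females in each batch.

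Of the genes just outside the threshold, *LAMC1*, the gamma chain shared by most laminins, differed by -0.24 ± 0.10 (SE, adjusted p = 0.0535), and its other probe by -0.22 (adjusted p = 0.0444). *CDH5*, the cadherin of endothelial junctions, differed by -0.25 ± 0.10 (SE, adjusted p = 0.0675), and its other probe by -0.35 (adjusted p = 0.0355). The endothelial marker *PECAM1*, which is not among the 44 genes, differed by -0.29 (adjusted p = 0.00942) and *TEK* by -0.21 (adjusted p = 0.0294), and 2 of the 5 endothelial markers outside the set passed. The summed level of the 6 endothelial markers measured, *CDH5* included, ran from 34.2 to 44.3 in females and from 34.5 to 49.2 in males. The part of these cells in the sex differences was not tested. By role, 1 collagen of 7 was higher and 1 lower, no laminin of 3 and no serpin of 2 passed, 2 of 6 metalloproteinases or inhibitors were lower, 1 cathepsin of 5 was lower, and among 11 CD antigens 1 was higher and 1 lower. Without the 3 arrays whose signal went against the label of sex, 11 genes passed, all among the 12, and *COL4A2* did not (adjusted p = 0.0507).

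**Figure D2:**
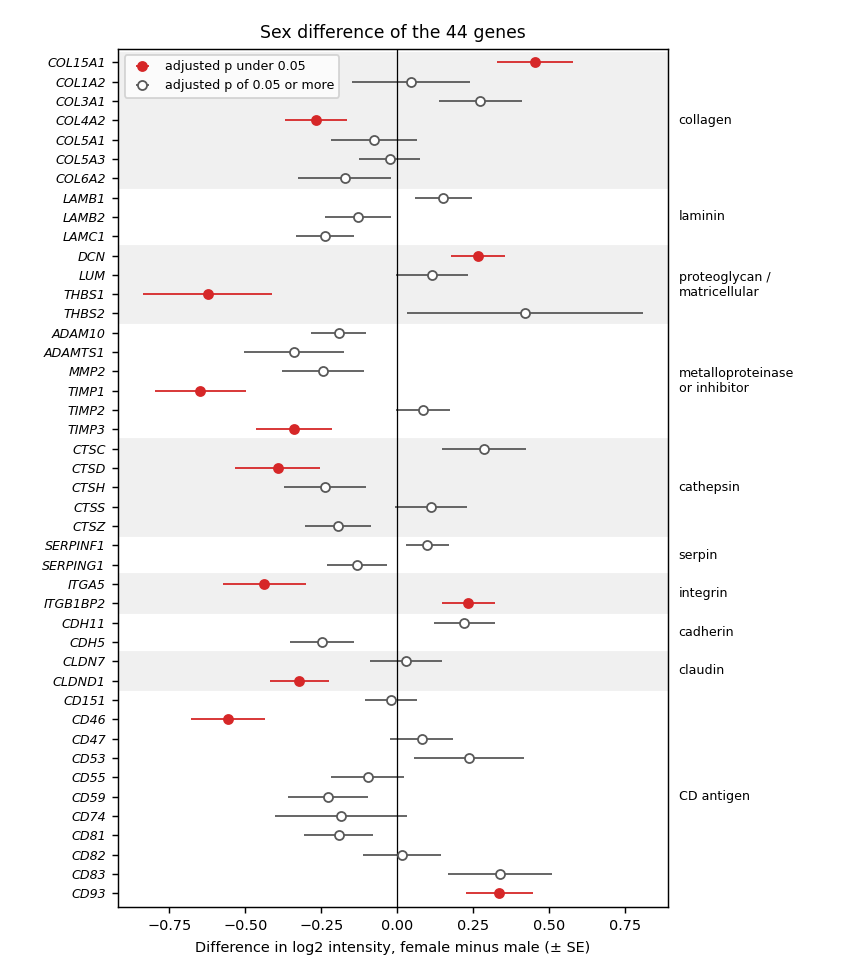
Difference in log2 intensity between females (n = 55) and males (n = 47) for each of the 44 genes, by role, with standard errors from limma. Filled symbols are the 12 genes with an adjusted p under 0.05, of which *TIMP1*, *THBS1* and *CD46* lie farthest to the left and *COL15A1* farthest to the right.

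Slaughter batch was compared with an F test over both contrasts with batch 2, which held most pigs, with sex and carcass weight in the model. Of the 44 genes 36 passed (81.8%), against 86.6% of all probes. By the contrast with the larger t, 11 were higher in batch 1 or 3 than in batch 2 (39.3% of all probes were) and 25 lower (47.4% of all probes were). The median difference was -0.36 for batch 1 and -0.66 for batch 3 over the 44 genes, and -0.11 and -0.17 over all probes. Quantile normalization moved these last medians by 0.12 and 0.16 to 0.01 and -0.01, and no member that passed in both fits changed sign. A measure of RNA integrity differed between the batches as well. The log2 signal of the 5′ actin control probe minus that of the middle probe was -1.28 ± 0.30 (SD, n = 14) in batch 1, -0.80 ± 0.29 (SD, n = 70) in batch 2 and -1.32 ± 0.43 (SD, n = 18) in batch 3. With that difference as an effect 32 genes passed, 31 of them among the 36, and 76.9% of all probes. Batch 1 pigs were 171 to 181 days old and batch 2 pigs 178 to 184 days. With age as an effect 32 genes passed, 6 of them higher and 26 lower, and 83.6% of all probes. The batches also differ in whatever else was done on their days, and these causes cannot be told apart.

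Of the 6 metalloproteinases and their inhibitors, 5 were lower in batches 1 and 3 and 1 was higher. *TIMP2*, an inhibitor that also helps to activate MMP2 at the cell surface, had the largest F. It ran from 7.25 through 8.44 to 9.38 in batch 1, from 8.62 through 9.68 to 10.51 in batch 2, and from 7.69 through 8.44 to 9.08 in batch 3. Only the tails of batch 2 and of the other batches overlapped. The differences from batch 2 were -1.19 ± 0.13 and -1.14 ± 0.12 (SE, adjusted p = 8e-18), or 2.28-fold and 2.20-fold. *MMP2*, gelatinase A, ran from 5.80 through 6.78 to 8.63 in batch 1, from 6.27 through 8.26 to 9.89 in batch 2 and from 5.33 through 6.69 to 7.33 in batch 3. The differences were -1.26 ± 0.20 and -1.52 ± 0.19 (SE, adjusted p = 1.16e-13). The protease and its partner inhibitor were thus lower together. *ADAM10*, *TIMP1* and *TIMP3* were lower as well, and *ADAMTS1*, a protease of proteoglycans, was the only one of the 6 that was higher, by 0.86 ± 0.24 in batch 1 and 0.31 ± 0.22 in batch 3 (SE, adjusted p = 0.00307). The other probe of *ADAMTS1* did not pass (adjusted p = 0.0648).

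Of the serpins, *SERPINF1* encodes the anti-angiogenic protein PEDF. It ran from 9.88 through 10.47 to 11.39 in batch 1 and from 10.23 through 11.26 to 11.86 in batch 2. In batch 3 it ran from 9.60 through 10.22 to 10.91. It was lower by -0.67 ± 0.10 and -0.98 ± 0.10 (SE, adjusted p = 7.18e-17). *SERPING1*, the C1 inhibitor of complement, was lower by -0.39 ± 0.15 and -0.90 ± 0.14 (SE, adjusted p = 2.54e-08). The cathepsins did not move as a group. *CTSD* was lower by -1.03 ± 0.21 and -1.11 ± 0.19 (SE, adjusted p = 1.08e-08), and *CTSS*, the cathepsin of antigen-presenting cells, was higher by 0.74 ± 0.18 and 0.40 ± 0.16 (SE, adjusted p = 0.000183). *CTSS* ran from 7.93 through 8.94 to 9.62 in batch 1, from 7.01 through 7.96 to 9.97 in batch 2 and from 7.38 through 8.55 to 9.77 in batch 3. *CTSC*, *CTSH* and *CTSZ* did not pass (adjusted p = 0.424, 0.989 and 0.089), although each of the 3 dimmer probes of *CTSC* did, with signs that differed between probes.

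The collagens split. *COL3A1*, the fibrillar collagen of soft connective tissue, ran from 5.01 through 6.11 to 7.42 in batch 1, from 3.40 through 5.14 to 6.71 in batch 2 and from 5.42 through 6.42 to 8.01 in batch 3. It was higher by 0.96 ± 0.20 and 1.31 ± 0.19 (SE, adjusted p = 2.91e-10), or 1.94-fold and 2.48-fold. *COL3A1* was measured by a single probe. Its residuals followed those of no other collagen, with correlations from -0.22 (*COL5A3*) to 0.04 (*COL15A1*). *COL15A1* was higher by 0.63 ± 0.19 and 0.34 ± 0.17 (SE, adjusted p = 0.00321). The other 5 collagens were lower, by 0.21 to 0.66 in batch 1 and by 0.70 to 1.08 in batch 3 on the log2 scale. One of them was *COL5A3*, a minor fibrillar chain, which ran from 5.18 through 6.19 to 7.04 in batch 1, from 5.84 through 6.84 to 8.13 in batch 2 and from 5.08 through 6.25 to 6.69 in batch 3. It was lower by -0.65 ± 0.15 and -0.71 ± 0.14 (SE, adjusted p = 3.82e-07). The call of *COL1A2*, with its dim probe, was lost after quantile normalization (adjusted p = 0.0606).

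Of the laminin chains, *LAMC1* ran from 6.29 through 7.04 to 8.13 in batch 1, from 6.80 through 7.73 to 8.70 in batch 2 and from 5.06 through 6.46 to 7.46 in batch 3. It was lower by -0.68 ± 0.14 and -1.27 ± 0.13 (SE, adjusted p = 5.52e-15). *LAMB2*, the beta chain of the neuromuscular junction and of mature basement membrane, ran from 6.46 through 7.15 to 8.73, from 6.62 through 7.71 to 9.20 and from 5.82 through 6.62 to 7.25 in the 3 batches. It was lower by -0.58 ± 0.16 and -1.17 ± 0.15 (SE, adjusted p = 4.16e-11). *LAMB1* was higher by 0.53 ± 0.14 and 0.49 ± 0.13 with its brighter probe (SE, adjusted p = 4.67e-05) and lower by -0.26 and -0.42 with the dimmer one (adjusted p = 0.0148), so its direction is not settled. *CDH5*, *CTSC*, *THBS1* and *CLDND1* likewise had a second probe that passed with at least 1 contrast of the opposite sign. *ITGB1BP2* did too, in batch 1, where both its probes were near 0.

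*ITGB1BP2* stood apart, because the difference lay in batch 3. It ran from 8.67 through 9.79 to 10.44 in batch 1 and from 8.18 through 9.72 to 10.68 in batch 2, but from 7.86 through 8.54 to 8.89 in batch 3. The differences were 0.06 ± 0.13 and -1.21 ± 0.12 (SE, adjusted p = 2.42e-16), and -0.04 and -1.38 with its other probe (adjusted p = 1.22e-16). With 2.32-fold lower melusin in batch 3, all 18 pigs of that batch lay under the medians of the other batches.

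Of the 11 CD antigens, 3 were higher and 7 lower. *CD47*, the receptor of thrombospondin 1 that signals against engulfment, ran from 6.20 through 7.15 to 8.21 in batch 1, from 4.62 through 5.78 to 7.27 in batch 2 and from 6.03 through 7.42 to 8.28 in batch 3. It was higher by 1.33 ± 0.15 and 1.32 ± 0.14 (SE, adjusted p = 1.63e-17), or 2.51-fold and 2.50-fold. *CD55* ran from 2.94 through 4.68 to 5.93, from 2.93 through 3.22 to 4.94 and from 3.19 through 3.73 to 6.05 in batches 1, 2 and 3. It was higher by 1.32 ± 0.18 and 0.51 ± 0.17 (SE, adjusted p = 5.59e-10), and most batch 2 pigs lay near the lower end of the dim probe's range. *CD53*, a tetraspanin of leukocytes, was the third that was higher, by 0.83 ± 0.27 and 0.49 ± 0.25 (SE, adjusted p = 0.00672).

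The tetraspanins *CD151* and *CD81*, which gather integrins and other receptors in the membrane, were lower. *CD151* ran from 6.65 through 7.35 to 8.87, from 7.42 through 8.26 to 8.94 and from 6.55 through 7.25 to 7.78 in batches 1, 2 and 3, and was lower by -0.84 ± 0.13 and -0.997 ± 0.12 (SE, adjusted p = 1.64e-14). *CD81* ran from 6.61 through 7.23 to 8.80, from 6.43 through 8.21 to 9.31 and from 6.16 through 6.87 to 7.33, and was lower by -0.89 ± 0.17 and -1.27 ± 0.16 (SE, adjusted p = 1.26e-12). *CD74*, the invariant chain of MHC class II, ran from 6.07 through 7.16 to 11.44, from 6.05 through 8.97 to 11.08 and from 5.53 through 6.35 to 7.34. It was lower by -1.13 ± 0.32 and -2.12 ± 0.30 (SE, adjusted p = 1.12e-09), and its 4.35-fold difference between batches 3 and 2 was larger than that of any other of the 44 genes. The summed level of the 6 measured macrophage markers ran from 19.6 to 43.6 in batch 1, from 21.3 to 40.1 in batch 2 and from 24.3 to 34.0 in batch 3. Their part in the batch differences was not tested.

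**Figure D3:**
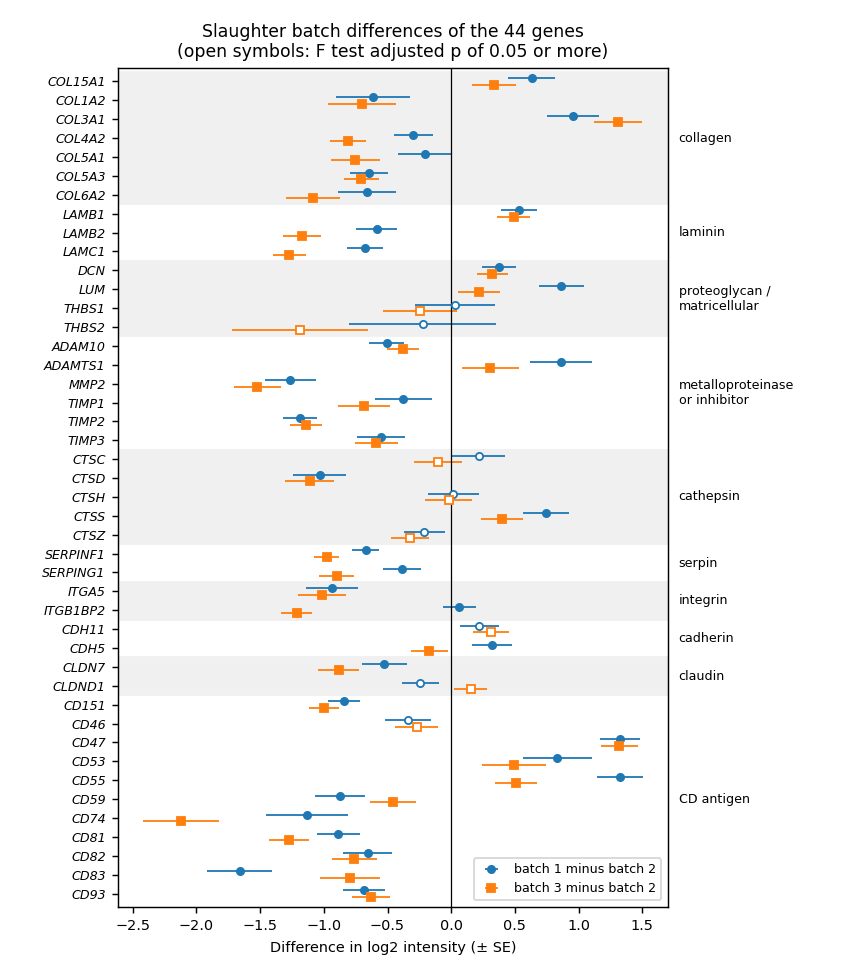
Difference in log2 intensity from batch 2 (n = 70) for batch 1 (circles, n = 14) and batch 3 (squares, n = 18), with standard errors from limma, for each of the 44 genes by role. Filled symbols are the 36 genes that passed the F test; most lie to the left of 0, while *CD47* and *COL3A1* lie to the right in both contrasts and *ITGB1BP2* moves only in batch 3.

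**Figure D4:**
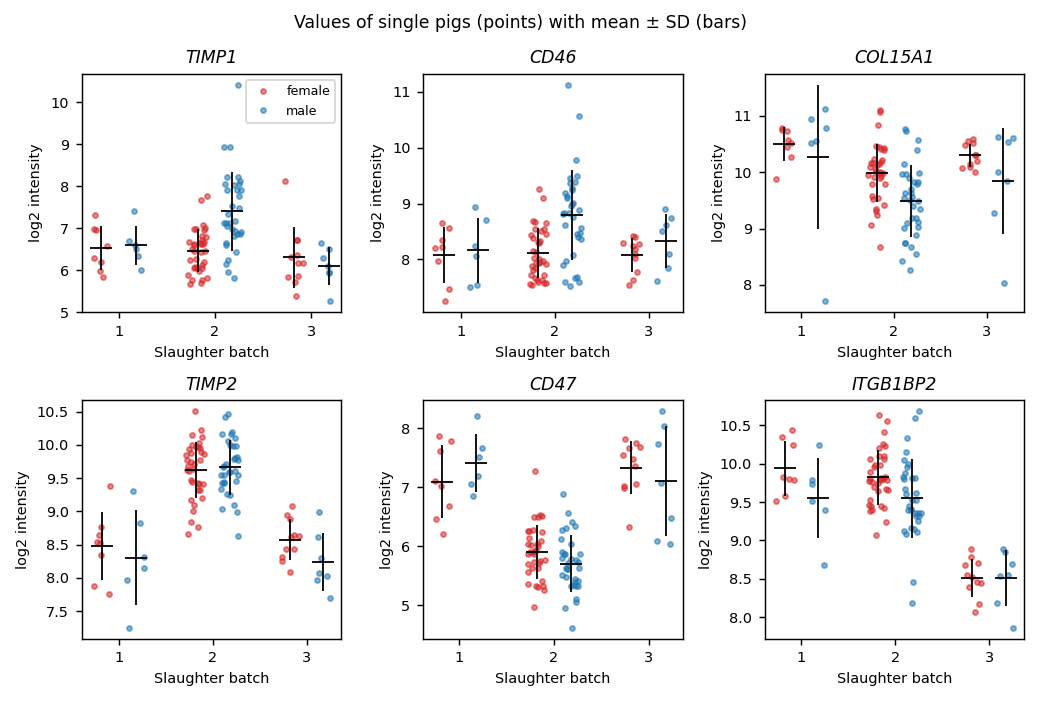
Log2 intensity (y axis) of single pigs for 6 genes by slaughter batch (x axis) and sex (colour), with mean ± SD as bars, for 102 pigs. For *TIMP1* and *CD46* the male mean lies above the female mean most in batch 2, *TIMP2* and *CD47* separate batch 2 from batches 1 and 3, and *ITGB1BP2* is low only in batch 3.

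Carcass weight showed no relation that passed. With sex and batch in the model, limma called 0 of 44 genes and 0% of all probes, with 2 genes and 589 probes at an unadjusted p under 0.05. The steepest of the 2 was *CTSD*, at 0.21 ± 0.07 log2 units per 10 kg (SE, adjusted p = 0.337), and the other was *CD47*, at -0.12 ± 0.05 (SE, adjusted p = 0.442). Mean carcass weight was 65.9 kg in batch 1, 73.3 kg in batch 2 and 64.6 kg in batch 3. The sex difference was tested for a dependence on batch and on weight. Neither interaction passed for any of the 44 genes or for any probe (0% for both). At an unadjusted p under 0.05 lay 2 genes and 425 probes for batch, and 0 genes and 292 probes for weight. The 2 genes were *TIMP1* (adjusted p = 0.456) and *ITGA5* (adjusted p = 0.517), for which the sex difference stood out in batch 2 above.

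How the 44 genes varied together was described with residuals, the values left after sex, batch and weight had been fitted. Over their 946 pairs the median correlation was 0.15 and 70.5% were positive, while over all pairs of probes the median was 0.00 and 49.5% were positive. A correlation over 0.5 was found for 132 pairs (14.0%), against 3.92% of all pairs, and one under -0.5 for 0 pairs. All pairs rest on the same 102 arrays, and these values are descriptions without a test. The median over the pairs was 0.20, 0.15 and 0.18 within batches 1, 2 and 3.

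Joining genes by average linkage where the correlation averaged 0.5 or more gave 3 blocks of more than 2 genes. The largest held 14 genes with a median correlation of 0.63: *COL4A2*, *COL5A1*, *COL5A3*, *COL6A2*, *LAMB2*, *MMP2*, *CTSD*, *CTSZ*, *SERPING1*, *ITGA5*, *CDH5*, *CD151*, *CD74* and *CD81*. It thus ran across roles, with basement membrane chains, a protease of them and surface proteins together. The closest pairs were *CD74* with *CD81* (0.89), *COL6A2* with *CD81* (0.84) and *COL6A2* with *CD74* (0.83). The median within the block was 0.64, 0.66 and 0.39 in batches 1, 2 and 3, and 0.44 with 2 principal components as effects. Of the 14 genes 12 were lower in batches 1 and 3 by the test above (47.4% of all probes were lower), and *CTSZ* did not pass. The 14 genes were joined by correlations on these same arrays, so their calls are not independent of each other. *CDH5* was called with contrasts of 0.32 in batch 1 and -0.17 in batch 3. Its other probe was lower in both, by -0.63 and -1.1 (adjusted p = 4.65e-08). The mean residual of the block correlated at 0.42 with that of the actin difference, at 0.54 with the array median and at 0.77 with the mean of the endothelial markers outside the set. It correlated at 0.63 with the fibroblast, 0.62 with the macrophage, 0.52 with the muscle fibre and 0.30 with the adipocyte markers. The part of these in the block was not tested. Of 7 listed adipocyte markers 3 were measured, *ADIPOQ*, *FABP4* and *LIPE*, and the mean of *ADIPOQ* lay above only 0.77% of probes. The endothelial markers *CLDN5* and *ENG* were dim too, with means above 8.55% and 10.8% of probes.

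Another block held *COL15A1*, *LAMB1*, *DCN*, *LUM*, *CDH11* and *CD47*, with a median correlation of 0.60. *CDH11* is a cadherin of fibroblasts and other mesenchymal cells, and *DCN* and *LUM* are fibroblast products. The closest pairs were *COL15A1* with *DCN* (0.76), *LAMB1* with *DCN* (0.74) and *DCN* with *LUM* (0.73). *DCN* and *LUM* are neighbours on chromosome 5 in the RefSeq gene order of the Sscrofa11.1 assembly, with 0 protein-coding genes between them, and correlated at 0.81, 0.66 and 0.90 within the 3 batches. *CDH11* and *CDH5* lie 1 gene apart (r = 0.43). In the block of 14 genes, *CTSD* lies near *CD81* (14 genes between, r = 0.76) and *CD151* (16 between, r = 0.60). The part of gene order in these correlations was not tested. The median within the block of 6 genes was 0.74, 0.50 and 0.80 within the batches. Of its 6 genes 5 were called higher by batch (39.3% of all probes were) and 0 lower (47.4% of all probes were). *LAMB1* was among the 5 by its brighter probe only. In females 2 of the 6 were higher (11.7% of all probes were). As in the block of 14 genes, these calls are not independent of each other. The mean of the 2 fibroblast markers outside the set, *DPT* and *THY1*, correlated with the block mean at 0.67, that of the macrophage markers at 0.31, that of the endothelial markers at 0.15, that of the muscle fibre markers at -0.13, that of the adipocyte markers at -0.0078, the array median at 0.31 and the actin difference at -0.22. Between this block and the block of 14 genes the median correlation was 0.15.

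The last block held *TIMP1*, *CTSH*, *CTSS*, *CD46* and *CD53*, with a median correlation of 0.64, and 0.69, 0.64 and 0.62 within the batches. Its closest pair was *TIMP1* with *CTSH*, a lysosomal aminopeptidase, at 0.74. The block mean correlated at 0.83 with the mean of the 6 macrophage markers measured (*CD163*, *C1QA*, *C1QC*, *AIF1*, *MRC1* and *TYROBP*). It correlated at 0.55 with the array median, 0.52 with the endothelial markers, 0.45 with the fibroblast, 0.26 with the muscle fibre and 0.20 with the adipocyte markers, and -0.10 with the actin difference. *C1QA*, *AIF1* and *TYROBP* were dim, with means above 8.90%, 9.97% and 12.3% of probes. No marker of the T cell, B cell and red blood cell lists had a named probe in the filtered table. Outside the blocks, *THBS1* went with *ADAMTS1* (0.67), *TIMP2* with *SERPINF1* (0.54), *COL1A2* with *TIMP3* (0.57) and *CD83* with *CD93* (0.58). *COL3A1* joined no block, and correlated at -0.14 with *COL1A2* and at 0.01 with *LUM*. The lowest correlations of all were those of *ADAM10*, the sheddase of Notch and cadherins, with *COL6A2* (-0.47) and *CD151* (-0.46).

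**Figure D5:**
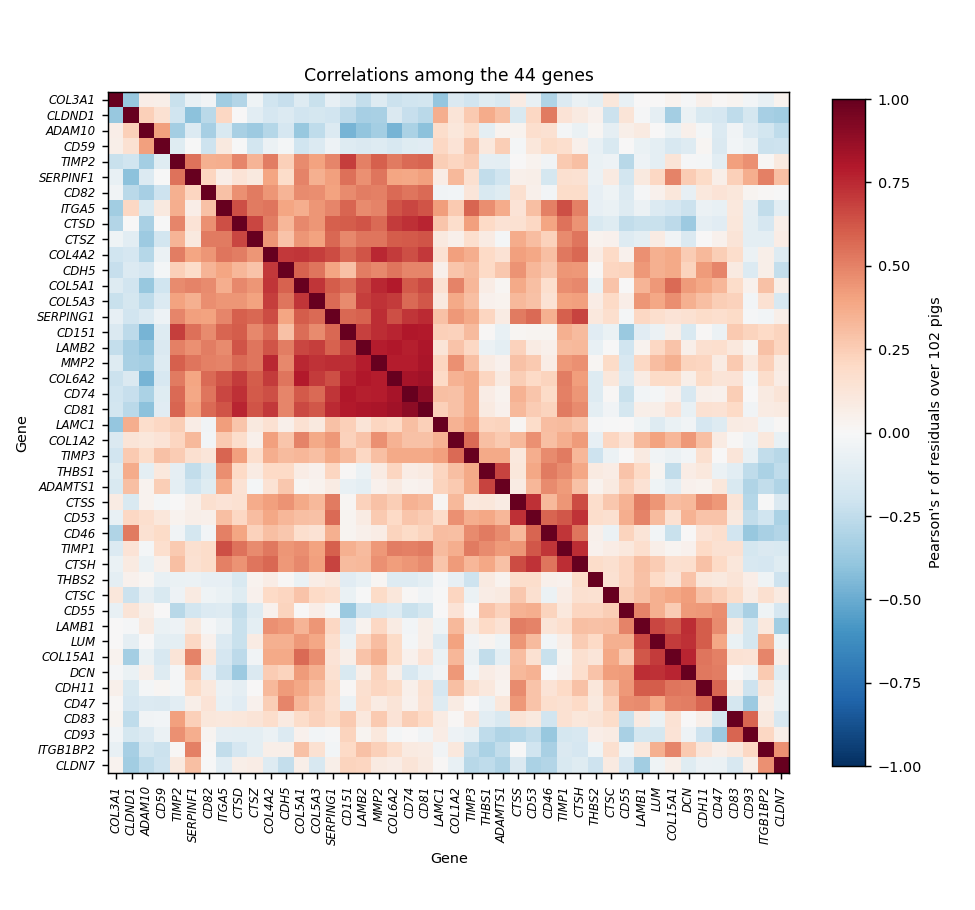
Pearson correlation of residuals over 102 pigs (colour scale) for every pair of the 44 genes, ordered by average linkage. Dark squares on the diagonal are the block of 14 genes from *ITGA5* to *CD81*, the block of 5 around *CTSS* and the block of 6 from *LAMB1* to *CD47*; *COL3A1*, *CLDND1* and *ADAM10* at the top left are pale or blue against most genes.

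Relations to single genes were tested with limma, as the change in log2 intensity per SD of the residual of an index gene, with its own probe left out. With *COL1A2* as the index, 23 of 43 genes passed, all of them positive, against 9.78% of all probes (6.53% positive and 3.25% negative). These included 5 of the other 6 collagens, all 3 laminins, *DCN* and *LUM*, both serpins and 2 of 5 cathepsins. *TIMP3* had the strongest relation, with a slope of 0.35 ± 0.05 (SE, adjusted p = 3.92e-07) and r = 0.57 (rho = 0.57, permutation p = 1e-05 for each, the smallest that the permutations can give). Within batches 1, 2 and 3 its r was 0.63, 0.62 and 0.02, and without the 2 pigs farthest from the median of *COL1A2* it was 0.52. *COL5A1*, which starts fibril assembly with type I collagen, had r = 0.50 (rho = 0.49, permutation p = 1e-05 for each, adjusted p = 2.08e-05), and 0.03, 0.59 and 0.16 within the batches. Both correlations were thus low in batch 3, and that of *COL5A1* in batch 1 as well. In batch 3 the *TIMP3* probe varied little, from 3.75 to 4.31 with an SD of 0.12, against 0.76 in batch 2. Its r there therefore says little about the relation.

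*CD53* followed *COL1A2* with r = 0.46 (rho = 0.47), and 0.61, 0.41 and 0.61 within the batches. For *MMP2* r was 0.45 (rho = 0.51), with 0.23, 0.46 and 0.63 within the batches, and for *SERPING1* r was 0.43 (rho = 0.48), with 0.18, 0.46 and 0.49. Each of these 3 had a permutation p of 1e-05 for r and for rho, an adjusted p in limma of 0.000125, 0.000172 and 0.000528, and r between 0.47 and 0.49 without the 2 farthest pigs. The 5 lowest were *COL3A1*, *THBS2*, *CLDN7*, *CD93* and *CD82*, with r from -0.14 to -0.02, and none passed (permutation p from 0.156 to 0.805). Of the 23 that passed, 22 had the same sign in all 3 batches. With age as an effect 15 genes passed, all positive, and 6.52% of all probes. The dim probe of *COL1A2* led to *LUM* as another index, chosen after the values had been seen. With *LUM*, 17 of 43 passed, all positive, of which 11 had passed with *COL1A2*, against 36.8% of all probes (20% positive and 16.8% negative).

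With *CTSS* as the index 23 of 43 genes passed, 22 of them positive, against 15.5% of all probes (13.1% positive and 2.37% negative). *CD53* had the closest relation, with a slope of 0.65 ± 0.06 (SE, adjusted p = 4.19e-15), r = 0.73 and rho = 0.68, and r of 0.84, 0.71 and 0.75 within the batches. *CTSH* followed with a slope of 0.43 ± 0.05 (SE, adjusted p = 4.51e-11), r = 0.66 and rho = 0.52, and 0.70, 0.66 and 0.63 within the batches. *SERPING1* (r = 0.52), *LAMB1* (r = 0.51) and *CDH11* (r = 0.48) came next. All 5 had a permutation p of 1e-05 for r and rho, and r from 0.47 to 0.69 without the 2 pigs farthest from the median of *CTSS*. The single gene that passed with a negative sign was *CD93*, with r = -0.28 (rho = -0.38, permutation p = 0.00399 and 0.00013, adjusted p = 0.0331). Its r was -0.02, -0.24 and -0.62 within the batches and -0.36 without the 2 farthest pigs. The other 4 of the 5 lowest, *CLDND1*, *CLDN7*, *CD59* and *ITGB1BP2*, had r from -0.15 to -0.0048 and did not pass (permutation p from 0.132 to 0.963). The mean of the macrophage markers correlated at 0.73 with *CTSS*, and its part in these relations was not tested. In batch 2 alone 12 of 43 genes passed, all positive and all among the 23, and 7.14% of all probes, and *CD93* did not (adjusted p = 0.266).

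*ELOVL6*, the fatty acid elongase of the study's own question, was the last index. Of the 44 genes 8 passed (18.2%), against 20.7% of all probes, so that the share was near that of all probes. Of the 8, 5 were positive (12.3% of all probes were) and 3 negative (8.46% of all probes were). The 5 were *CD47* (r = 0.45), *CDH11* (r = 0.42), *LUM* (r = 0.38), *COL15A1* (r = 0.37) and *DCN* (r = 0.35), all of them in the block of 6 genes above. That block was joined by correlations of the same residuals, so these 5 relations are not independent of each other. Their permutation p for r ran from 1e-05 to 0.0004 and for rho from 1e-05 to 0.00119, and their adjusted p from 0.000214 to 0.00701. For *CD47* r was 0.61, 0.36 and 0.55 within the batches, and for *DCN* 0.52, 0.19 and 0.59. Without the 2 pigs farthest from the median of *ELOVL6* the 5 correlations ran from 0.35 to 0.48. The 3 negative genes were *ITGA5* (r = -0.28), *CLDND1* (r = -0.27) and *LAMC1* (r = -0.26), with adjusted p of 0.0296, 0.0419 and 0.0469. With 2 principal components as effects the slope of *ITGA5* turned to 0.0138 (adjusted p = 0.879), and neither *CLDND1* nor *LAMC1* passed. The other 2 of the 5 lowest, *CTSD* and *THBS1*, both had r = -0.14 and did not pass (permutation p = 0.148 and 0.153). With those components 11 genes passed, all positive, of which 2 were among the 8, and 8.96% of all probes. In batch 2 alone 2 genes passed, 1 of them among the 8, and 6.2% of all probes.

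Genes of the same pathways outside the set were counted in the same fits. Of 40 listed matrix assembly genes 16 had a named probe, and in females 3 were higher and 2 lower (31.2%, against 26.1% of all probes). *CYR61*, a matricellular immediate-early protein, was lower by -0.84 ± 0.26 (SE, adjusted p = 0.00974), and *PCOLCE2*, an enhancer of procollagen processing, was higher by 0.36 ± 0.12 (SE, adjusted p = 0.0146). By batch 6 of the 16 were higher and 7 lower (81.2%, against 86.6% of all probes). *PLOD1*, a lysyl hydroxylase of collagen, was lower by -0.64 ± 0.13 in batch 1 and by -1.02 in batch 3 (adjusted p = 3.61e-13). In the relation to *COL1A2*, 11 of the 16 passed and all were positive (68.8%, against 9.78% of all probes), among them *POSTN*, periostin (slope 0.65 ± 0.09, adjusted p = 9.24e-08), *MGP*, matrix Gla protein (0.29 ± 0.04, adjusted p = 4.44e-07) and *FN1*, fibronectin (0.37 ± 0.06, adjusted p = 4.44e-07). In the relation to *CTSS* 11 were positive as well (68.8%, against 15.5% of all probes), with *FN1* first (0.36 ± 0.06, adjusted p = 2.73e-07). In the relation to *ELOVL6* 9 were positive and 1 negative (62.5%, against 20.7% of all probes), with *FBN1*, fibrillin 1, first (0.28 ± 0.05, adjusted p = 1.16e-05).

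Of 20 listed TGF-beta signalling genes 5 were measured. In females 2 were higher and 2 lower (80%, against 26.1% of all probes). *TGIF1*, a repressor of SMAD targets, was lower by -0.73 ± 0.14 (SE, adjusted p = 3.78e-05). *TGFBR1*, the type I receptor, was higher in females by 0.24 ± 0.07 (SE, adjusted p = 0.00791) and higher by 0.61 in both batch contrasts (adjusted p = 5.01e-10). None of the 5 passed in the relation to *COL1A2* (0%, against 9.78% of all probes). Of 26 adhesion complex genes 7 were measured. In females 1 was higher and 0 lower (14.3%, against 26.1% of all probes). The higher gene was *VCAM1*, a ligand of leukocyte integrins, by 0.30 ± 0.09 (SE, adjusted p = 0.0096). By batch 2 were higher and 3 lower (71.4%, against 86.6% of all probes). Among the lower was *VCL*, vinculin, by -1.23 ± 0.18 in batch 1 and -1.34 in batch 3 (adjusted p = 8.57e-14). Of 17 protease control genes 7 were measured. In females 0 were higher and 1 lower (14.3%, against 26.1% of all probes). The lower gene was *CST3*, the cystatin C that inhibits cathepsins, by -0.33 ± 0.10 (SE, adjusted p = 0.0096). By batch 1 was higher and 5 were lower (85.7%, against 86.6% of all probes). The calpain *CAPN1* was lower by -1.49 ± 0.25 in batch 1 and -1.98 in batch 3 (adjusted p = 4.38e-14). None of these lists held a gene that passed for carcass weight, for which no probe at all had passed (0%).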

How the data were processed

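Expression of *Longissimus dorsi* from 102 backcross pigs had been measured on Affymetrix porcine arrays. The authors generated the data with GCOS, checked array quality, and normalized with GCRMA, whose version the sources used here do not give. What was deposited are log2 intensities after that normalization, and 0 columns were left unused. The authors then kept probes by a filter on variability, more than 20% of values beyond 1.5 times the median. In the table, 5340 of 5449 probes met this rule as read here (lowest 16.7% of arrays), so shares of all probes are shares of probes that vary. GCRMA models background by probe sequence, so dim probes are pulled towards a floor and small differences there are compressed. Arrays carry no counts, and precision depends in part on how many pigs there are.

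Of 5493 probes 44 controls were left out. Of the other 5449, the array annotation gave 1 symbol to 2639, several to 49 and none to 2761. All 44 genes matched RefSeq, which was used for gene order only. Sex, batch, age and weight were taken from the labels. limma 3.58.1 in R 4.3.3 (lmFit, eBayes) was fitted to all 5449 probes with sex, batch and carcass weight, two-sided, and adjusted p-values are Benjamini-Hochberg values over all probes, called at 0.05. Index relations used the residual of the index probe, scaled by its SD, over 5448 probes. Their correlations used 100000 permutations, two-sided, on residuals, run in Python 3.11.15 (matplotlib 3.10.9, scipy 1.17.1, pandas 2.3.3, numpy 2.4.6). In data simulated with 200 changed probes of 5449, a change of 1 SD was recovered for 93% of probes for sex and 96.5% for batch, and one of 0.5 SD for 16.5% and 10%. A slope of 0.5 SD per SD was recovered for 92% for weight and 93% for an index. The simulated batch change ran in opposite directions in batches 1 and 3, while most genes called here moved the same way in both. Simulated probes were also independent of each other, and far fewer of them changed than were called for sex or batch. The recovered shares therefore hold for those settings only.

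Values were given for the members that passed for sex or weight, the 12 with the largest F for batch, *CTSS*, *COL5A3* and *SERPINF1* from the study's supplementary lists, and the 5 highest and 5 lowest correlations with each index. The members, roles and lists were chosen with earlier results of these data known. Pigs are related, and the pedigree was not used here, so p-values measure the spread between pigs as if they were independent. Alternatives were other normalization, covariates, array weights, batch as a random block, batch 2 alone, a filter on dim probes, other probes, and arrays or pigs left out.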

Additional observations from a re-analysis of the deposited data

How the results depend on the processing

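The counts of genes called for sex (8 to 17 against 12) and batch (32 to 39 against 36) stayed within 1.5 times under every alternative run, and the counts for both interactions stayed at 0. For carcass weight 23 genes passed with no covariates (62.6% of all probes did) and 1 with 2 principal components. In the relation to *COL1A2* 15 passed with age as an effect (6.52% of all probes), in that to *CTSS* 12 in batch 2 alone (7.14%), and in that to *ELOVL6* 23 with no covariates (65.4% of all probes did), 2 in batch 2 alone (6.2%) and 5 with Benjamini-Yekutieli adjustment at 0.20 (13.8%). The cause was not tested. The filter on a mean of at least 4 could not be fitted with *COL1A2* as the index, since its own probe is under 4.

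Among the relations to index genes, signs turned for those that had not passed and were near 0. Of those that had passed, *ITGA5* with *ELOVL6* turned. With *COL1A2*, the slope with no covariates was 0.0928 for *CLDN7*, 0.0836 for *CD93* and 0.0947 for *CD82*, that in batch 2 alone 0.0186 for *CD93*, and that with array weights 0.008 for *CD82*, while r was 0.0229 in females for *COL3A1* and 0.0033 in males for *CD82*. With *CTSS*, r was 0.0278 in females for *CLDND1* and 0.0466 in males for *CD59*. For *ITGB1BP2* with *CTSS* the slope was 0.0005 after quantile normalization, 0.0119 with 2 principal components, 0.0063 with the actin difference and 0.0162 without the 2 farthest pigs, rho was 0.0138 and r in females 0.11. With *ELOVL6*, 2 principal components gave slopes of 0.0138 for *ITGA5*, 0.11 for *CTSD* and 0.0759 for *THBS1*, and r in females was 0.16 for *THBS1*. Of the named single-gene values and alternatives counted, 589 kept their direction and their side of the threshold, 27 no longer passed, 6 passed that had not, and these 19 turned. Batch results that turned with another probe of the same gene are not among the 19. Of the genes called by batch, *LAMB1* turned in both contrasts and *CDH5* in batch 1 (0.32 against -0.63). *ITGB1BP2* also turned in batch 1, where both values were near 0 (0.06 against -0.04). No paired analysis was possible because the labels give the pigs no replicate numbers that the sexes or batches share.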
